A study of Mus musculus with 7 samples.

Results

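Cholesterol and fatty acids are made from acetyl-CoA by linked sets of enzymes, and 35 genes of these pathways were read in RNA-seq of mouse embryonic fibroblasts (MEFs) under stress. The members are given by gene symbol, by a rule that uses no measured value, though they were chosen with earlier results of these data known. All 35 were found once each among the 49382 rows of the deposited table. They comprise 18 genes of the sterol pathway, 7 of its mevalonate part and 11 from squalene synthesis to cholesterol. The others are 10 genes of fatty acid synthesis, elongation and desaturation, 5 genes of the SREBP regulators and 2 genes of sterol transport. The wild type MEFs came from embryos of E13.5 to E14.4, with head and fetal liver removed, and were used at passage 3 to 7. The 7 libraries were 1 control and 1 from each of 6 conditions. Sodium arsenite at 10 μM (oxidative stress) and 100 mM NaCl (osmotic stress) were added for 3 hours, and 1 μM thapsigargin, which blocks the calcium pump of the ER (ER stress), for 10 hours. Glucose-free medium (glucose depletion), glutamine-free medium (glutamine depletion) and 0.1% oxygen (hypoxia) were applied for 10 hours. Treatment began after a night in culture, and the depleted cells had a change of medium that the labels do not give for the control. The labels do not say from which strain or how many embryos the cells came, nor whether the depleted media held serum. There was 1 library per condition, so no replicate error exists for any difference and no test was made.

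Levels are in TPM, a transcript's share of a library per unit of length scaled to a total of 1000000, so levels can be compared between genes. Changes are differences of log2(TPM + 1) against the control library. A gene is said to have risen or fallen where this change was past 2-fold (beyond 1 or -1). The scale understates changes of low genes. As background served the 12909 genes that averaged 2 TPM or more across the libraries (kept genes), which included all 35 members, the lowest being Abca1 with a mean of 6.11 TPM and Acss2 with 8.05 TPM. Oxidative and osmotic stress shifted the median of all kept genes by -0.16 and -0.12, and the shift was within 0.1 of 0 in the other 4 conditions, so values in these 2 conditions are to be read against it.

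As background, enzymes of the mevalonate part condense acetyl-CoA to HMG-CoA and mevalonate and convert it to isoprenoid units, and the later enzymes join these into squalene, close the ring to lanosterol and trim it to cholesterol. Both pathways are switched on by the transcription factors SREBP1 and SREBP2 (genes Srebf1 and Srebf2), which are made as ER membrane proteins. The escort protein SCAP carries them to the Golgi for cleavage when ER cholesterol is low, and INSIG proteins hold SCAP in the ER when sterols are plentiful. SREBP2 acts mainly on sterol genes and SREBP1 mainly on fatty acid genes, and the factor NF-Y, which binds CCAAT boxes, is a known partner at their promoters. Oxysterols activate the LXR receptors, which induce sterol export genes such as Abca1.

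Promoter sequences from RefSeq (GRCm38.p6, the build that the authors aligned to) are shown for 5 members that carry the patterns described below: Hmgcs1, the marker gene of the set, Idi1 and Msmo1, which had the largest rises of the sterol pathway in oxidative stress, Mvd, which rose in ER stress, and Fasn of the fatty acid pathway. Each is the 200 bases before the annotated start, 5′ to 3′ on the strand of the gene. Capitals mark the letters CCAAT on either strand (so also ATTGG) and the SREBP-type motif TCACNCCAC on either strand. The windows lie at chr13:119690151-119690350 (plus strand) for Hmgcs1, chr13:8885406-8885605 (plus strand) for Idi1, chr8:64733579-64733778 (minus strand) for Msmo1, chr8:122443423-122443622 (minus strand) for Mvd and chr11:120824548-120824747 (minus strand) for Fasn.
Hmgcs1: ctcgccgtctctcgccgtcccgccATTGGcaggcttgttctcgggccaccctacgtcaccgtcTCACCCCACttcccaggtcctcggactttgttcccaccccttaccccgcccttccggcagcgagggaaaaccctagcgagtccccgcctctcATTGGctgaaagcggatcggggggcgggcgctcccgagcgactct
Idi1: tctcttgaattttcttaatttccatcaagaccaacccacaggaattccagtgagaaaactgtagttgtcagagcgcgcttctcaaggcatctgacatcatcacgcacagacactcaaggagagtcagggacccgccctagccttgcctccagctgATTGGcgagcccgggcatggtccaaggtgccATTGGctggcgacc
Msmo1: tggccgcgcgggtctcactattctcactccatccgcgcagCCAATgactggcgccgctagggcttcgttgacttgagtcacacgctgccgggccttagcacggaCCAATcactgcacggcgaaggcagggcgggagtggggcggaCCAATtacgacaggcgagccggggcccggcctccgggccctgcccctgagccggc
Mvd: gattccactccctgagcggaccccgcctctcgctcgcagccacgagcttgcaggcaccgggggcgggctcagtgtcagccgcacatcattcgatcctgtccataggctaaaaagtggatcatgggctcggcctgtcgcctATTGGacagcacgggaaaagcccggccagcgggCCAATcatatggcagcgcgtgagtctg
Fasn: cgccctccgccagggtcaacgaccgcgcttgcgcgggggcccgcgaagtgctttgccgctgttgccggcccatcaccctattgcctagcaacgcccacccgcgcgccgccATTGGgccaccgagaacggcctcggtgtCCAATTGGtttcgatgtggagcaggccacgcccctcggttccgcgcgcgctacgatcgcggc

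These 5 windows hold 2 CCAAT letters in Hmgcs1, Idi1 and Mvd and 3 in Msmo1 and Fasn, where the last 2 of Fasn overlap each other. Over the whole promoters of the table (250 bases before to 50 after the start, any annotated start counted), 28 members had an entry. The letters CCAAT were present for 14 of 15 sterol pathway genes, 4 of 5 SREBP regulators and 4 of 7 fatty acid genes, against 43.5% of the 9014 kept genes with an entry and 41.1% of all 27025 genes of the table. TCACNCCAC was found in Hmgcs1 alone among the members, against 1.43% of the kept genes and 1.44% of all genes. GGGCGG, the SP1 type motif, was present for 14 of 15 sterol and 3 of 7 fatty acid genes, against 71.5% of the kept and 38.2% of all genes, and the E-box CACGTG for 3 of 15 and 1 of 7, against 12.3% and 8.09%. All motifs were searched on both strands as exact letters. These are matches of letters, not sites shown to be bound.

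The sterol genes split the conditions into those where they stood above the control and those where they stood below. In oxidative stress 16 of the 18 sterol genes were higher than in the control and in osmotic stress 12 of 18. In glucose and in glutamine depletion all 18 were lower, and in hypoxia 17 of 18. In ER stress 7 were higher and 11 lower. After centring on the median of all kept genes, 17 of 18 were higher in oxidative stress, 15 of 18 in osmotic stress, and 17 of 18 were lower in glutamine depletion. Mitochondrially encoded genes took 9.25% of the oxidative stress library, against 6.37% of the control and 5.09% to 7.58% of the others, and with these genes removed 17 of 18 sterol genes were higher in oxidative stress, with a median change of 0.60. Of all kept genes, 66.0% were lower than the control in oxidative stress, 61.6% in osmotic stress, 48.5% in ER stress, 55.5% in hypoxia, 53.7% in glucose depletion and 60.0% in glutamine depletion. The summed level of the 18 genes was 1171 TPM in the control, 1917 in oxidative stress, 1559 in osmotic stress, 1053 in ER stress, 765 in hypoxia, 660.1 in glucose depletion and 659 in glutamine depletion. Both libraries with the higher sums were taken at 3 hours and the other 4 treated libraries at 10 hours, so treatment and time cannot be told apart. In bulk RNA, fewer cells of a type and less RNA per cell cannot be told apart either.

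**Figure D1:**
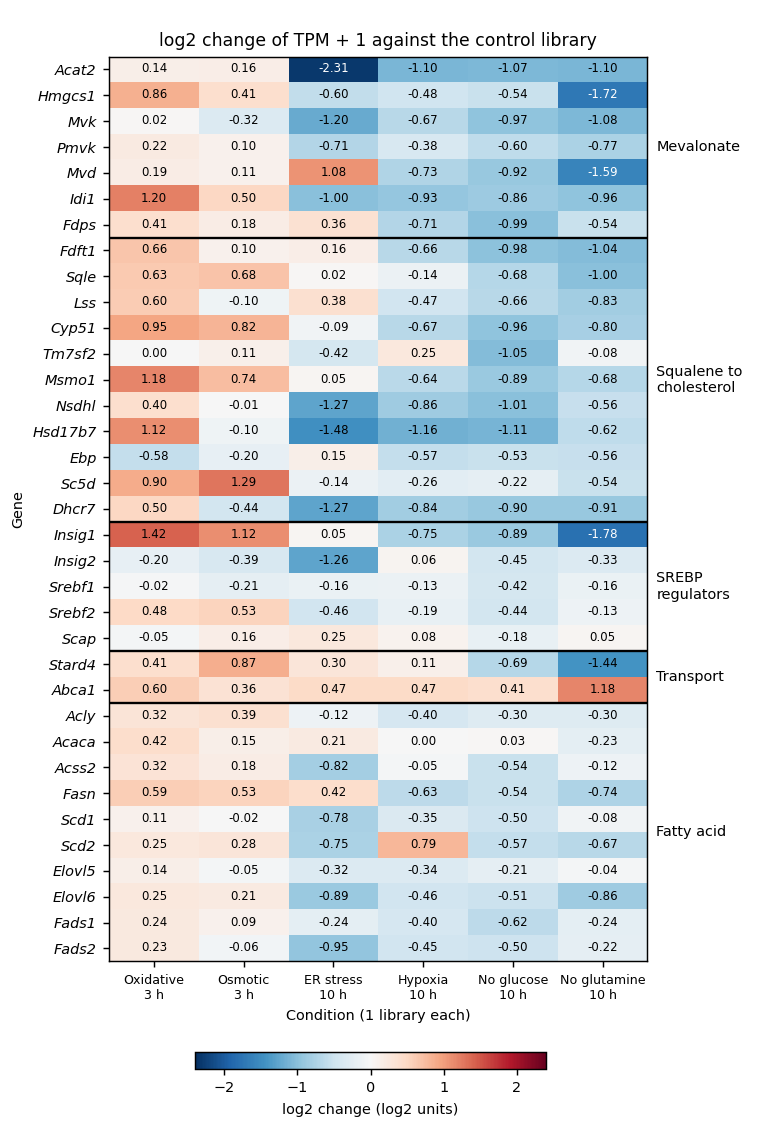
Heat map of the log2 change of TPM + 1 against the control for the 35 members (rows, grouped by role) in 6 conditions (columns, 1 library each), with each value printed in its cell. The sterol rows are mostly red in oxidative stress, where 16 of 18 are above 0, and blue in glucose and glutamine depletion, where all 18 are below 0 (17 of 18 in glutamine depletion after centring on the median of all kept genes).

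Past 2-fold, 4 of the 35 members rose and 0 fell in oxidative stress, where 3.94% of all kept genes rose and 4.85% fell. In osmotic stress 2 rose and 0 fell, against 3.08% and 8.76%. In ER stress 1 rose and 7 fell, against 8.60% and 11.0%. In hypoxia 0 rose and 2 fell, against 3.57% and 2.64%. In glucose depletion 0 rose and 4 fell, against 1.83% and 2.41%, and in glutamine depletion 1 rose and 7 fell, against 3.21% and 3.21%. Altogether 16 of the 35 members passed 2-fold in at least 1 condition (12 of 18 sterol genes, 2 of 5 regulators, both transport genes and 0 of 10 fatty acid genes), against 34.4% of the kept genes. Many sterol changes lay close to the threshold, so these counts move with it more than the values do. At 1.5-fold, 11 of the 18 sterol genes fell in hypoxia, 15 in glucose depletion and 13 in glutamine depletion, in place of 2, 4 and 5. With a pseudocount of 5 TPM these became 1, 0 and 2 past 2-fold. The share of all kept genes past 1.5-fold was not computed. The 2-fold shares above are therefore no background for the 1.5-fold counts.

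Among the mevalonate genes, Acat2 and Hmgcs1 carry out the opening condensations. Hmgcs1, which makes HMG-CoA, was at 98.5 TPM in the control, 179 in oxidative stress, 131 in osmotic stress, 64.7 in ER stress, 70.6 in hypoxia, 67.6 in glucose depletion and 29.2 in glutamine depletion. It was highest in oxidative stress (log2 change 0.86) and fell past 2-fold in glutamine depletion alone (-1.72), while hypoxia, glucose depletion and ER stress lay close together (-0.48, -0.54 and -0.60). Acat2, the cytosolic thiolase that joins a pair of acetyl-CoA molecules, was at 45.5 TPM in the control, 50.4 in oxidative stress, 51.0 in osmotic stress, 8.39 in ER stress, 20.7 in hypoxia, 21.1 in glucose depletion and 20.6 in glutamine depletion. It fell in all 4 of the 10-hour libraries and was close to the control in both 3-hour libraries (0.14 and 0.16), and its change of -2.31 in ER stress was the largest fall of any member. Acat2 shares 43.75% of its 31-base words (the default length that kallisto matches) with Acat3, listed at no more than 1.42 TPM. It also shares 13.2% with Tcp1, which stood at 336 to 429.5 TPM with changes between -0.21 and 0.15. The level of Acat2 thus depends on how reads were divided.

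The kinases and the decarboxylase that follow were all lower than the control in hypoxia and both depletions, and parted in ER stress. Mvk, mevalonate kinase, was at 50.6 TPM in the control, 51.3 in oxidative stress, 40.3 in osmotic stress, 21.4 in ER stress, 31.4 in hypoxia, 25.4 in glucose depletion and 23.4 in glutamine depletion, and fell in ER stress (-1.20) and glutamine depletion (-1.08). Pmvk, which adds the next phosphate, stayed within 2-fold throughout, between 21.9 TPM in glutamine depletion and 44.4 TPM in oxidative stress. Mvd, the decarboxylase that forms isopentenyl diphosphate, was at 28.7 TPM in the control, 32.7 in oxidative stress, 31.04 in osmotic stress, 61.8 in ER stress, 16.9 in hypoxia, 14.7 in glucose depletion and 8.87 in glutamine depletion. Mvd was thus highest in ER stress, where it rose (1.08), and lowest in glutamine depletion, where it fell (-1.59), a 6.97-fold range. It was the single sterol gene that rose in ER stress, and with a pseudocount of 5 TPM it no longer passed 2-fold.

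Idi1, the isomerase of isopentenyl diphosphate, was at 61.2 TPM in the control, 142 in oxidative stress, 87.2 in osmotic stress, 30.1 in ER stress, 31.6 in hypoxia, 33.2 in glucose depletion and 30.96 in glutamine depletion. The highest library was oxidative stress (1.204), and ER stress, hypoxia and both depletions lay between 30.1 and 33.2 TPM, of which ER stress was just past 2-fold (-1.001) and glutamine depletion (-0.96) short of it. The pseudogene Gm13502 shares 18.4% of the 31-base words of Idi1 and was listed at 6.93 to 40.45 TPM. When its row was added to that of Idi1, the change was 0.82 in oxidative stress, so no longer past 2-fold, -1.34 in ER stress, -1.08 in hypoxia and -1.07 in glutamine depletion. Fdps, which builds farnesyl diphosphate and was the most abundant of the 18 sterol genes in the control, was at 193 TPM in the control, 257 in oxidative stress, 218 in osmotic stress, 248 in ER stress, 117 in hypoxia, 96.2 in glucose depletion and 132 in glutamine depletion. It stayed within 2-fold, with its lowest value in glucose depletion (-0.99).

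The genes from squalene synthesis to cholesterol had a median change of 0.63 in oxidative stress and 0.10 in osmotic stress, against 0.22 and 0.16 for the 7 mevalonate genes. Fdft1, squalene synthase, was at 50.8 TPM in the control, 80.8 in oxidative stress, 54.6 in osmotic stress, 57.1 in ER stress, 31.8 in hypoxia, 25.2 in glucose depletion and 24.1 in glutamine depletion, and fell in glutamine depletion (-1.04). Its neighbour on the opposite strand, Ctsb, shares 17.6% of its 31-base words and was listed at 224 to 409 TPM, with a change of 0.09 in glutamine depletion. Sqle, the oxygenase that makes squalene epoxide, was at 88.3 TPM in the control, 138 in oxidative stress, 142 in osmotic stress, 89.9 in ER stress, 80.1 in hypoxia, 54.7 in glucose depletion and 43.8 in glutamine depletion, the last of these just short of 2-fold (-0.995). Lss, which closes the ring, ranged from 24.3 TPM in glutamine depletion to 67.5 TPM in oxidative stress and did not pass 2-fold in any condition.

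Cyp51, the lanosterol demethylase, was at 94.0 TPM in the control, 183 in oxidative stress, 167 in osmotic stress, 88.1 in ER stress, 58.9 in hypoxia, 47.9 in glucose depletion and 53.7 in glutamine depletion. Msmo1, the sterol methyl oxidase, was at 141 TPM in the control, 319 in oxidative stress, 235 in osmotic stress, 146 in ER stress, 89.8 in hypoxia, 75.6 in glucose depletion and 87.5 in glutamine depletion. Both were highest in oxidative stress, next in osmotic stress and lowest in glucose depletion, but of these changes the rise of Msmo1 in oxidative stress (1.18) alone passed 2-fold. Sc5d, a desaturase of the last steps, was at 65.4 TPM in the control, 123 in oxidative stress, 161 in osmotic stress, 59.3 in ER stress, 54.6 in hypoxia, 56.0 in glucose depletion and 44.6 in glutamine depletion. It was the only sterol gene that rose in osmotic stress (1.29), with 0.90 in oxidative stress and a small difference in glucose depletion (-0.22), the smallest there among the 18.

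Nsdhl and Hsd17b7, which act with Msmo1 in removing methyl groups at carbon atoms of the sterol ring, were both lowest in ER stress. Nsdhl was at 40.2 TPM in the control, 53.2 in oxidative stress, 39.9 in osmotic stress, 16.1 in ER stress, 21.7 in hypoxia, 19.5 in glucose depletion and 27.0 in glutamine depletion, and fell in ER stress (-1.27) and glucose depletion (-1.01). Hsd17b7 was at 54.5 TPM in the control, 119.6 in oxidative stress, 50.8 in osmotic stress, 18.9 in ER stress, 23.9 in hypoxia, 24.8 in glucose depletion and 35.2 in glutamine depletion. It rose in oxidative stress (1.12), differed little from the control in osmotic stress (-0.10, or 0.02 after centring on the median of all genes), and fell in ER stress (-1.48), hypoxia (-1.16) and glucose depletion (-1.11). Its highest and lowest libraries differed 6.32-fold.

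Dhcr7, the last reductase before cholesterol, was at 27.3 TPM in the control, 39.0 in oxidative stress, 19.8 in osmotic stress, 10.8 in ER stress, 14.8 in hypoxia, 14.2 in glucose depletion and 14.01 in glutamine depletion, and fell in ER stress (-1.27). Tm7sf2, a sterol reductase, was at 11.98 TPM in the control, 11.9 in oxidative stress, 13.0 in osmotic stress, 8.68 in ER stress, 14.5 in hypoxia, 5.27 in glucose depletion and 11.2 in glutamine depletion, and fell in glucose depletion (-1.05). It was also the single sterol gene with a higher value in hypoxia than in the control (0.25), and 10.7% of its 31-base words are shared with the overlapping gene Vps51, which was at 17.2 to 27.3 TPM. The sum of both rows had a change of -0.43 in glucose depletion. Ebp, the sterol isomerase, was at 39.0 TPM in the control, 25.8 in oxidative stress, 33.9 in osmotic stress, 43.3 in ER stress, 26.0 in hypoxia, 26.7 in glucose depletion and 26.1 in glutamine depletion, and was the flattest of the 18 with a 1.68-fold range. Its lowest library was oxidative stress (-0.58), where 16 of the 18 were above the control and Tm7sf2 did not differ from it (0.00).

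**Figure D2:**
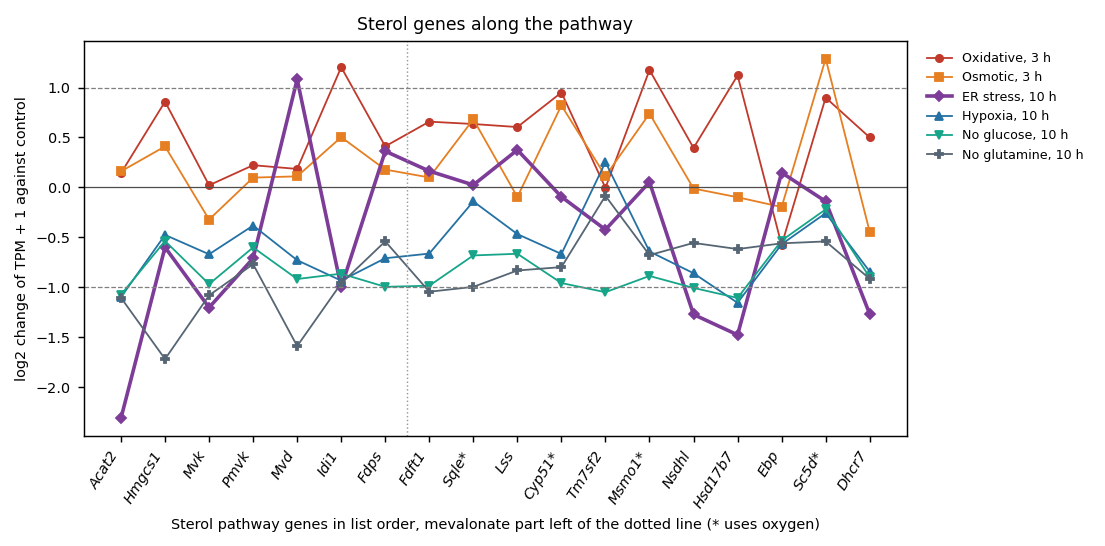
Log2 change of TPM + 1 against the control (y axis) for the 18 sterol genes in list order (x axis), 1 line per condition, with dashed lines at 2-fold and asterisks on the 4 enzymes that use oxygen. The ER stress line runs from -2.31 at Acat2 to 1.08 at Mvd, while the line of glucose depletion stays between -1.11 and -0.22.

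ER stress thus gave the sterol genes the widest range of the 6 conditions, from -2.31 for Acat2 to 1.08 for Mvd, with 6 of 18 fallen (Acat2, Mvk, Idi1, Nsdhl, Hsd17b7 and Dhcr7), 1 risen (Mvd) and a median of -0.28. Fdps (0.36), Lss (0.38), Fdft1 (0.16), Ebp (0.15), Msmo1 (0.05) and Sqle (0.02) were above the control in the same library. Thapsigargin changed many other genes, and the 8 fibroblast markers summed to 6160 TPM in this library against 11389 TPM in the control, with Col3a1 down by a log2 change of -2.07 and Pdgfrb by -1.15. The part of this in the lipid genes was not tested.

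Hypoxia bears on oxygen directly, since Sqle, Cyp51, Msmo1 and Sc5d use it as a substrate. Their changes in hypoxia were -0.14, -0.67, -0.64 and -0.26, a median of -0.45, against -0.69 for the other 14 sterol genes. None of the 4 passed 2-fold, and the 2 sterol genes that did, Acat2 (-1.10) and Hsd17b7 (-1.16), encode enzymes that use no oxygen. The same 4 genes had medians of 0.92 in oxidative and 0.78 in osmotic stress, against 0.40 and 0.10 for the other 14, and -0.03 against -0.65 in ER stress. In the fatty acid pathway Scd1, Scd2, Fads1 and Fads2 use oxygen. Their median in hypoxia was -0.375, against -0.369 for the other 6 fatty acid genes, and in ER stress -0.77 against -0.22. In oxidative stress it was 0.24 against 0.32, and in osmotic stress 0.04 against 0.20. With 4 oxygen-using genes in each pathway and 1 library per condition these medians are descriptions.

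Of the SREBP regulators, Insig1 had the widest range over the libraries and Srebf1 and Scap the narrowest. Insig1, which retains SCAP in the ER and is itself a target of SREBP, was at 45.8 TPM in the control, 125 in oxidative stress, 101 in osmotic stress, 47.4 in ER stress, 26.8 in hypoxia, 24.2 in glucose depletion and 12.6 in glutamine depletion. Its 9.90-fold range was the widest of the 35 members. It rose in both 3-hour libraries (1.42 and 1.12) and fell in glutamine depletion (-1.78), with -0.89 in glucose depletion, -0.75 in hypoxia and 0.05 in ER stress. Its relative Insig2, at 36.2 TPM in the control, 31.3 in oxidative stress, 27.4 in osmotic stress, 14.5 in ER stress, 37.9 in hypoxia, 26.3 in glucose depletion and 28.6 in glutamine depletion, had another order of libraries, with its fall in ER stress (-1.26) and its highest value in hypoxia.

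Srebf2, the gene of SREBP2, was at 59.0 TPM in the control, 82.7 in oxidative stress, 86.0 in osmotic stress, 42.7 in ER stress, 51.8 in hypoxia, 43.4 in glucose depletion and 54.0 in glutamine depletion, and did not pass 2-fold. Its higher values were those of the 3-hour libraries (0.48 and 0.53), the libraries in which the sterol sum was also highest. Srebf1 lay between 44.3 TPM in glucose depletion and 59.4 TPM in the control, a 1.34-fold range, and the table sums its transcripts, so the 1a and 1c forms cannot be told apart. Scap lay between 29.9 and 40.6 TPM, a 1.36-fold range. SREBP activity is set largely by cleavage of the proteins, which TPM does not measure.

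The sterol transport genes Stard4 and Abca1 parted in glutamine depletion. Stard4, a cytosolic sterol carrier, was at 17.6 TPM in the control, 23.6 in oxidative stress, 33.1 in osmotic stress, 21.8 in ER stress, 19.1 in hypoxia, 10.5 in glucose depletion and 5.87 in glutamine depletion, and fell there (-1.44). Abca1, the LXR-induced exporter of cholesterol, was at 3.90 TPM in the control, 6.42 in oxidative stress, 5.27 in osmotic stress, 5.78 in ER stress, 5.78 in hypoxia, 5.51 in glucose depletion and 10.1 in glutamine depletion, and rose there (1.18). Abca1 was lowest in the control and Stard4 highest in osmotic stress (0.87). Abca1 is the lowest of the members, and with a pseudocount of 5 TPM its rise no longer passed 2-fold.

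**Figure D3:**
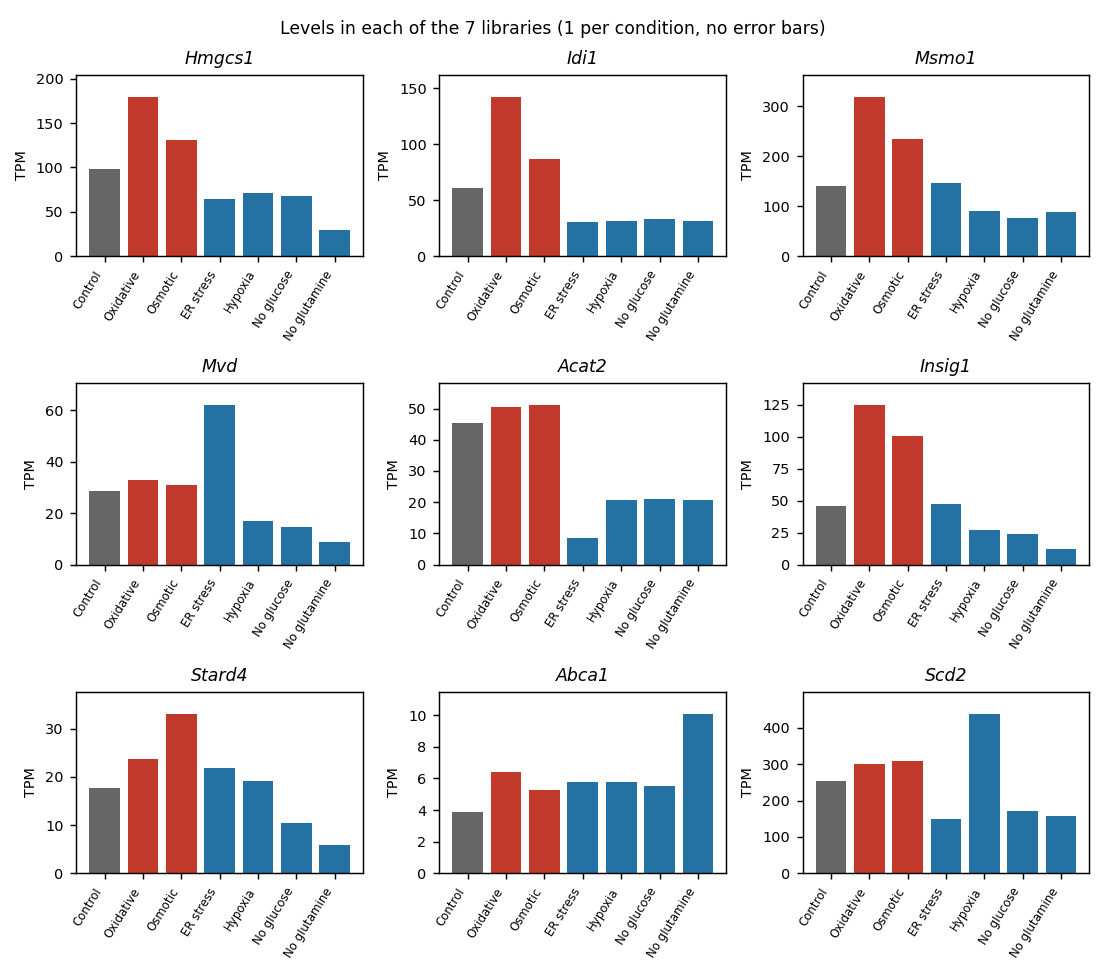
TPM (y axis, from 0) of 9 members in each of the 7 libraries (x axis; 1 bar is 1 library, grey for control, red for 3 hours, blue for 10 hours). Insig1 is highest in oxidative stress at 125 TPM and lowest in glutamine depletion at 12.6 TPM, and Scd2 is highest in hypoxia at 439 TPM.

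No gene of the fatty acid pathway passed 2-fold in any condition. Acly, which makes cytosolic acetyl-CoA from citrate, was at 119 TPM in the control, 149 in oxidative stress, 157 in osmotic stress, 109.9 in ER stress, 90.1 in hypoxia, 96.5 in glucose depletion and 96.7 in glutamine depletion. Acss2, which makes it from acetate, lay between 4.51 TPM in ER stress (-0.82) and 11.1 TPM in oxidative stress. Acaca, the carboxylase that commits acetyl-CoA to fatty acids, lay between 22.4 TPM in glutamine depletion and 35.9 TPM in oxidative stress (0.42), a 1.60-fold range. Fasn, fatty acid synthase, was at 78.9 TPM in the control, 119 in oxidative stress, 114 in osmotic stress, 106 in ER stress, 50.5 in hypoxia, 53.9 in glucose depletion and 46.9 in glutamine depletion. Both 3-hour libraries were the highest and those of hypoxia and the depletions the lowest. Its ER stress value (0.42) was above the control.

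The desaturase Scd2 was the most abundant member in the control, at 253 TPM in the control, 301 in oxidative stress, 308 in osmotic stress, 149.7 in ER stress, 439 in hypoxia, 171 in glucose depletion and 159 in glutamine depletion. Its hypoxia value (0.79) was the highest change of any member in that library, where 9 of the 10 fatty acid genes were lower than in the control. That count includes Acaca, at 0.00 and 0.05 after centring on the median of all genes. The sister gene Scd1, which shares 5.18% of its 31-base words with Scd2, was at 92.9 TPM in the control, 100.1 in oxidative stress, 91.8 in osmotic stress, 53.8 in ER stress, 72.7 in hypoxia, 65.6 in glucose depletion and 87.9 in glutamine depletion. It was lower in hypoxia than in the control (-0.35). The sum of the 2 desaturase rows had a change of 0.56 in hypoxia.

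Of the elongases and the other desaturases, Elovl6 and Fads2 were lowest in ER stress. Elovl6, which extends palmitate, was at 22.3 TPM in the control, 26.8 in oxidative stress, 26.0 in osmotic stress, 11.6 in ER stress, 15.9 in hypoxia, 15.4 in glucose depletion and 11.9 in glutamine depletion. Its changes of -0.89 in ER stress and -0.86 in glutamine depletion did not pass 2-fold. Fads2, the delta-6 desaturase, was at 108 TPM in the control, 127 in oxidative stress, 103 in osmotic stress, 55.2 in ER stress, 78.5 in hypoxia, 75.9 in glucose depletion and 92.4 in glutamine depletion. Its ER stress change of -0.95 was the lowest of a fatty acid gene in any condition. Its neighbour Fads1, the delta-5 desaturase, lay between 59.3 TPM in glucose depletion and 109 TPM in oxidative stress, and Elovl5 between 45.7 TPM in hypoxia and 64.2 TPM in oxidative stress. Of the 7 adipocyte markers, Pparg and Fabp4 fell in ER stress (-1.96 and -1.18) and Pparg in glutamine depletion (-1.12, with -0.17 for Fabp4), and in glucose depletion they stood at -0.34 and -0.50. The summed level of the 7 was 96.5 TPM in the control, 74.9 in oxidative stress, 78.7 in osmotic stress, 32.7 in ER stress, 86.8 in hypoxia, 71.6 in glucose depletion and 65.0 in glutamine depletion. Cfd and Cidec were at 0 in every library. The sum was thus below the control in all 6 conditions, those in which sterol genes were higher included, and its part in the sterol and fatty acid results was not tested.

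The median of the fatty acid genes lay on the same side of the control as that of the sterol genes in each condition. The fatty acid median change was 0.25 in oxidative stress against 0.55 for the sterol genes, -0.50 against -0.91 in glucose depletion, -0.24 against -0.81 in glutamine depletion and -0.38 against -0.66 in hypoxia. In osmotic stress the medians were close, 0.16 and 0.11, and their order turned when the median of the other libraries was the reference. In ER stress the fatty acid median was the lower, -0.54 against -0.28. The sums gave 1043 TPM in oxidative stress, 993 in osmotic stress, 645 in ER stress, 896 in hypoxia, 619.7 in glucose depletion and 659 in glutamine depletion, against 859 in the control, and Scd2 made up 439 TPM of the hypoxia sum and 253 TPM of the control sum. Relative to the median of all kept genes, the sterol genes stood at 0.71 and the fatty acid genes at 0.41 in oxidative stress, and at 0.23 and 0.28 in osmotic stress.

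**Figure D4:**
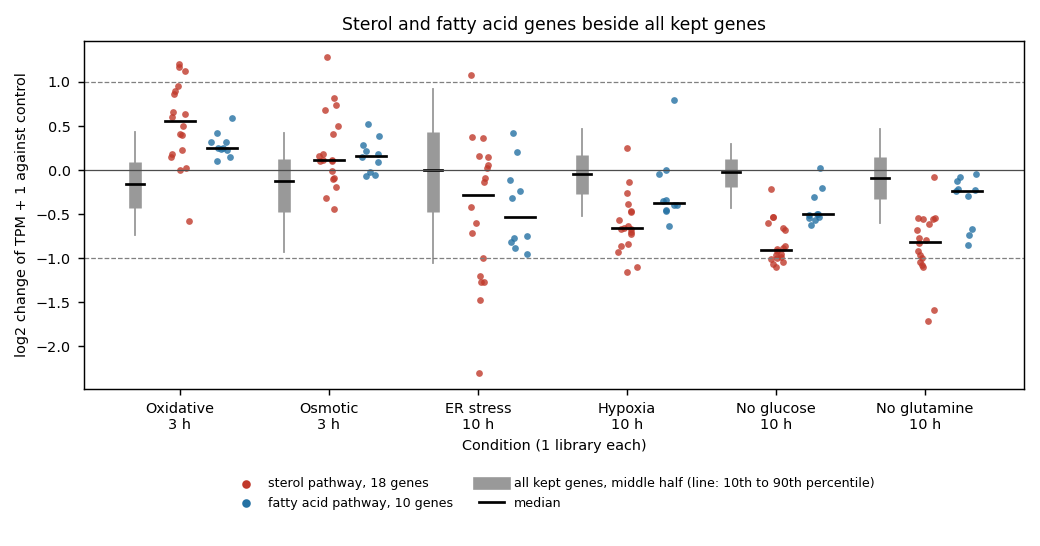
Log2 change of TPM + 1 against the control (y axis) in each condition (x axis) for 18 sterol genes (red points), 10 fatty acid genes (blue points) and all 12909 kept genes (grey bar for the interquartile range, thin line from the 10th to the 90th percentile), with black ticks at the medians and dashed lines at 2-fold. The sterol median runs from 0.55 in oxidative stress to -0.91 in glucose depletion, and no blue point passes a dashed line.

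The pattern across conditions was shared by single genes. It was read from the sterol genes themselves, with ER stress left out. The counts that follow therefore describe it, and the share of all kept genes is not independent support. Of the 18 sterol genes, 11 were higher than the control in both 3-hour libraries and lower in hypoxia and both depletions, as were 5 of 10 fatty acid genes and 187 of all 12909 kept genes (1.45%). All of these comparisons use the same control library, so its own variation enters each. Without any reference to the control, 12 sterol genes had their highest level in oxidative stress and another 3 under NaCl, and the lowest was in glutamine depletion for 7, ER stress for 6, glucose depletion for 4 and oxidative stress for 1. The control library held neither the highest nor the lowest value of any of the 18. Of the fatty acid genes, 8 were highest in oxidative stress and 5 lowest in ER stress. How often other kept genes were highest or lowest in each library was not counted, so these counts cannot be called particular to the members.

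Other genes of sterol control were read from the lists. Beside their counts, 8.60% of all kept genes rose in ER stress, 4.85% fell in oxidative stress and 34.4% passed 2-fold in at least 1 condition. Of 7 further genes of SREBP processing and INSIG-linked degradation, Erlin1 (34.7 to 86.5 TPM, 1.29) and Mbtps2, a protease that cleaves SREBP (11.8 to 26.9 TPM, 1.13), rose in ER stress. Erlin2 fell in oxidative stress (-1.01), while 0 of the 7 passed 2-fold in hypoxia and the depletions. Of 8 kept genes from a list of 9 other SREBP targets, 1 passed 2-fold in any condition, Mid1ip1 in ER stress (1.23). The 8 had medians of 0.04 in oxidative and -0.003 in osmotic stress, against -0.16 and -0.12 for all kept genes. In these 3-hour libraries 5 and 4 of the 8 were higher than the control. Their median was -0.05 in ER stress and lower in hypoxia (-0.23), glutamine depletion (-0.31) and glucose depletion (-0.34). Pcyt2, of phosphatidylethanolamine synthesis, was at 48.7 TPM in the control, 79.7 in oxidative stress, 44.6 in osmotic stress, 29.3 in ER stress, 37.8 in hypoxia, 24.8 in glucose depletion and 25.3 in glutamine depletion.

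None of the 5 kept genes of 6 LXR receptors and targets besides Abca1 passed 2-fold in any condition. Of 8 genes of the isoprenoid branch, which uses mevalonate products for ubiquinone, dolichol and prenylation, Dhdds rose in ER stress (1.04) and the others did not pass 2-fold. Among 7 genes of sterol esters, oxysterol binding and the lysosome, Soat1, which esterifies cholesterol, rose in glutamine depletion (76.7 to 187 TPM, 1.27) and in oxidative stress (1.07), and Nceh1, an ester hydrolase, fell in glutamine depletion (-1.11). Stard5, a sterol carrier, rose in ER stress from 10.2 to 56.5 TPM (2.35) and fell in osmotic stress (-1.64), and Osbp rose in ER stress (1.24). Beside these, 3.94% of all kept genes rose in oxidative stress and 8.76% fell in osmotic stress. In glutamine depletion 3.21% rose and 3.21% fell.

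As to the libraries, genes known to answer each treatment changed in it. Hspa5 went from 1165 to 12611 TPM in ER stress, Hmox1 from 266 to 6055 in oxidative stress and Bnip3 from 26.7 to 797 in hypoxia. Akr1b3 went from 90.5 to 575 in osmotic stress, Txnip from 70.7 to 16.1 in glucose depletion and Atf3 from 3.02 to 21.3 in glutamine depletion. Txnip was, however, lower still in osmotic stress (7.22), and Atf3 higher still in ER stress (112) and oxidative stress (88.3). The defining markers of fibroblasts were high in all 7 libraries (8 markers, summed 6160 to 12781 TPM). Lists of macrophage (7 genes), endothelial (5) and epithelial (5) markers summed to at most 13.7, 9.07 and 11.8 TPM, 4 hepatocyte markers to at most 0.322 TPM, and 7 adipocyte markers to 32.7 to 96.5 TPM, nearly all Pparg and Fabp4. Of 5 muscle markers, summed to 51.0 to 187 TPM, Myod1 was at most 0.1075 TPM and the sum was mostly Acta1 and Des.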

How the data were processed

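RNA-seq libraries of MEFs (stranded mRNA, paired-end reads of 76 bp) were read from 1 control and 6 treated cultures. The authors aligned reads with kallisto 0.43.1 at default settings to the cDNA transcripts of GRCm38 (Ensembl release 90), summed transcripts per gene and deposited TPM. Default kallisto does not use strand. TPM keeps no read counts, so depth is unknown and no counting interval can be given. From the deposited TPM, log2(TPM + 1) changes against the control library were computed, for genes averaging 2 TPM or more, and changes of more than 2-fold were counted, the threshold the authors used for stress conditions. Samples were grouped from their labels. No test was possible with 1 library per condition.

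The members and lists were chosen with earlier results of these data known. All 35 members are named, and other genes only from the lists, at most 4 per list and condition by size of change. Locations, overlaps and shared 31-base words came from GENCODE M21 (GRCm38), promoters from RefSeq (GRCm38.p6), where 28 of 35 members matched. Protein identity of paralogs was not analysed here. The change of 1 gene of the other lists is not reported here. Alternatives were pseudocounts of 0.1 and 5 TPM, other expression filters, centring, removal of mitochondrial genes, another reference and thresholds of 1.5-fold and 3-fold. Adding Gm13502 to Idi1 was chosen after seeing the data. The steps were tested on simulated data. Software was pandas 2.3.3 and numpy 2.4.6 under Python 3.11.15, with matplotlib 3.10.9 for figures.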

Additional observations from a re-analysis of the deposited data

How the results depend on the processing

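Variation between cultures was not measured and TPM gives no depth, so the error of each change is unknown. Of the 210 member changes, the 28 past 2-fold kept their sign in all 197 values under the other settings that gave one, those of Idi1 with Gm13502 added included. A pseudocount or an expression filter cannot change the sign of a member change. Only centring, removal of mitochondrial genes, the other reference and the added Gm13502 row could have done so. For the 28 past 2-fold, centring was too small a shift, since the largest median subtracted was -0.16. Removal of mitochondrial genes was too small as well, with the oxidative stress sterol median going from 0.55 to 0.60. Most of the 197 signs were thus fixed in advance and are no support. The sterol and fatty acid medians kept their sign in every condition. The difference between these medians in osmotic stress turned from -0.05 to 0.34 with the median of the other libraries as reference. A median was counted as moved where it shifted by over 1.5-fold, which none did. A count was counted as moved where it differed by over 1.5 times, and the causes were not tested. Shares of all kept genes past the threshold were not computed under these settings, so the counts below have no background beside them.

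With a pseudocount of 5 TPM, sterol genes counted as risen in ER stress were 0, and as fallen 1 in hypoxia, 0 in glucose depletion and 2 in glutamine depletion, and of all members 0 rose in ER stress and in glutamine depletion and 1, 0 and 4 fell in hypoxia, glucose depletion and glutamine depletion. With a mean of at least 10 TPM required, Abca1 was not tested and 0 members rose in glutamine depletion. After centring, 6 sterol genes and 7 members rose in oxidative stress and 3 sterol genes fell in glutamine depletion. With the median of the other libraries as reference, 9 sterol genes and 10 members rose in oxidative stress, 5 and 6 under osmotic stress, 2 and 2 fell in ER stress, 0 and 0 in hypoxia, 1 fatty acid gene (so 1 member) rose in hypoxia and 0 members rose in glutamine depletion.

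At 1.5-fold, 9 sterol genes, 1 fatty acid gene and 12 members rose in oxidative stress, 4 sterol genes and 6 members in osmotic stress and 1 fatty acid gene, so 1 member, in hypoxia. At this threshold 5 fatty acid genes and 14 members fell in ER stress, 11 sterol genes, 1 fatty acid gene and 13 members in hypoxia, 15, 1 and 18 in glucose depletion and 13, 3 and 18 in glutamine depletion. At 3-fold, 0 sterol genes and 0 members rose in oxidative, in osmotic and ER stress, 0 fell in hypoxia and glucose depletion, 1 sterol gene and 1 member fell in ER stress, 2 and 3 fell in glutamine depletion, and 0 members rose there. Without an expression filter, without mitochondrial genes and with a pseudocount of 0.1 TPM, no count moved. Of the single member changes, 18 moved by over 1.5-fold, all with the other reference, and 23 of 210 took the other sign with it, against 13 after centring and 3 without mitochondrial genes. No paired analysis was possible because each condition had 1 library.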

Other observations

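Lists of neighbouring lipid pathways were written with earlier results of these data known. Of all kept genes, 3.57% rose in hypoxia and 8.60% in ER stress, 3.94% in oxidative stress and 3.21% in glutamine depletion. In osmotic stress 8.76% fell, in hypoxia 2.64% and in ER stress 11.0%. Of 12 genes of glycerolipid synthesis and lipid droplets, 2 rose in hypoxia, namely Hilpda, a droplet protein and inhibitor of lipolysis, at 16.1 TPM in the control, 15.9 in oxidative stress, 5.87 in osmotic stress, 24.2 in ER stress, 84.9 in hypoxia, 14.8 in glucose depletion and 16.5 in glutamine depletion, and Dgat2, the last enzyme of triglyceride synthesis, at 3.98 TPM in the control, 4.23 in oxidative stress, 3.87 in osmotic stress, 18.8 in ER stress, 11.0 in hypoxia, 7.18 in glucose depletion and 3.87 in glutamine depletion. Hilpda was highest in hypoxia (2.33) and lowest in osmotic stress, where it fell (-1.32). Dgat2 rose more in ER stress (1.99) than in hypoxia (1.27). Its counterpart Dgat1 had -0.93 in hypoxia, the lowest value of the list there. The droplet protein Plin2 was within 2-fold in all conditions, highest in ER stress at 142 TPM against 89.3 TPM in the control.

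Of 11 kept genes among 14 others of fatty acid elongation and activation, Acsl4, which activates arachidonate and other polyunsaturated fatty acids, was at 17.6 TPM in the control, 39.8 in oxidative stress, 35.98 in osmotic stress, 32.5 in ER stress, 14.9 in hypoxia, 22.6 in glucose depletion and 41.8 in glutamine depletion, and rose in glutamine depletion (1.200) and oxidative stress (1.13). Elovl4 fell in hypoxia, from 4.45 to 1.63 TPM (-1.05). Of 11 genes of fatty acid oxidation, 10 were lower than the control in ER stress, where 48.5% of all kept genes were. Their median there was -0.49, with Acadm past 2-fold (-1.13). In oxidative stress 10 were lower too, against 66.0% of all kept genes, with a median of -0.33. Glutamine depletion had 9 lower, against 60.0%, with a median of -0.20. The remaining conditions had 7 lower each, against 53.7% to 61.6%. In osmotic stress Cpt2 fell (-1.04) and the median of the list was -0.09, against -0.12 for all kept genes. With 1 library per condition none of these values has an error.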
